A study of Mus musculus with 6 samples.

Results

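The CXC chemokines are small secreted proteins that carry a CXC cysteine motif and steer leukocytes along gradients toward a site of inflammation. The 9 ligands described here were taken by gene symbol from a table of 24786 genes measured in Raw264.7 macrophages, and all 9 symbols were present. By their known roles they were set in 3 groups. *Cxcl1*, *Cxcl2*, *Cxcl3* and *Cxcl5* encode neutrophil-attracting ligands, which act on the receptor Cxcr2. *Cxcl9*, *Cxcl10* and *Cxcl11* encode interferon-induced ligands, which act on Cxcr3 and attract activated T cells and NK cells. *Cxcl14*, a ligand that many resting tissues make without stimulation, and *Cxcl16*, a transmembrane ligand of Cxcr6 that can be shed from the cell surface and also takes up oxidized lipoprotein, belong to neither group.

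In macrophages, the genes of the neutrophil-attracting ligands are textbook targets of NF-κB, and their short-lived transcripts are cleared by decay factors that bind AU-rich elements or stem-loops. The interferon-induced ligands depend on interferon signalling and interferon regulatory factors, with NF-κB as a partner at *Cxcl10*. ETV5 is a transcription factor of the ETS family. The comparison asked which of these ligands differ in transcript level when *Etv5* is knocked down, and whether the neutrophil-attracting and the interferon-induced ligands differ alike.

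RNA was sequenced from Raw264.7 cells, a macrophage line established from a mouse tumor induced by Abelson leukemia virus, in 3 libraries with a control shRNA (sh-NC) and 3 libraries with an shRNA against *Etv5* (sh-*Etv5*). Both shRNAs were delivered by lentivirus, so the sh-NC cells are infected cells as well, and the culture medium was the same for both groups. The labels give measurement at 24 or 48 hours after infection, whereas the study describes the sequenced cells as stably transfected, and the time of harvest is therefore not settled. Neither source names which of the study's *Etv5* shRNAs was used or says that the libraries came from separate infections, so the p-values measure only the spread between libraries, which may be technical. The labels record strain C57BL/6 and postnatal day 21 for the line, although Raw264.7 is generally recorded as derived from BALB/c.

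The values are RPKM, reads on a gene scaled by its length and by the mapped reads of its library, so that levels can be compared between genes. Sequencing depth is unknown, and the RPKM of a library summed to between 320462 and 340257. *Etv5* itself was lower in every sh-*Etv5* library (4.91 to 5.28 RPKM) than in every sh-NC library (9.18 to 9.89 RPKM), and its log2 fold change was -0.78 (limma adjusted p = 2.74e-07). All 7 macrophage markers read (*Csf1r*, *Adgre1*, *Cd68*, *Lyz2*, *Itgam*, *Fcgr1* and *Spi1*) were at 1 RPKM or more in all 6 libraries. Markers of T cells, B cells, fibroblasts, endothelium and epithelium were each below 1 RPKM in every library. The exact zeros below are values as listed, and 6955 of the 24786 genes were at 0 in all 6 libraries. Whether a listed 0 stands for an absent transcript was not tested. Of 78 ribosomal protein gene symbols, 2 were at 0 in all libraries, *Rpl10l* and *Rpl39l*.

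The CXC ligands that Raw264.7 cells expressed, and their order, differed between the groups. Of the 9 ligands, 5 passed the filter on low values, which asked for at least 1 RPKM in at least 3 libraries. Their log2(RPKM + 1) was compared with limma, and a Benjamini-Hochberg adjusted p-value under 0.05 over all 10738 genes tested was called. *Cxcl2*, *Cxcl3* and *Cxcl10* were higher in sh-*Etv5* cells, against 33.3% of all tested genes called higher. *Cxcl14* was lower, against 41.0% of all tested genes called lower, and *Cxcl16* was not called. Of all tested genes 74.3% were called in either direction, and 9.23% were called with a log2 difference above 1 in size, as *Cxcl2*, *Cxcl3* and *Cxcl14* were. The groups did not overlap for any of these 5 ligands, which was also so for 76.4% of all tested genes. *Cxcl3* had 1 RPKM or more in the sh-*Etv5* libraries only, so that passing the filter and differing went together for that ligand. *Cxcl14* likewise passed by its sh-NC libraries, with 1 sh-*Etv5* library just above 1 RPKM. *Cxcl1*, *Cxcl5*, *Cxcl9* and *Cxcl11* stayed below the filter.

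**Figure D1:**
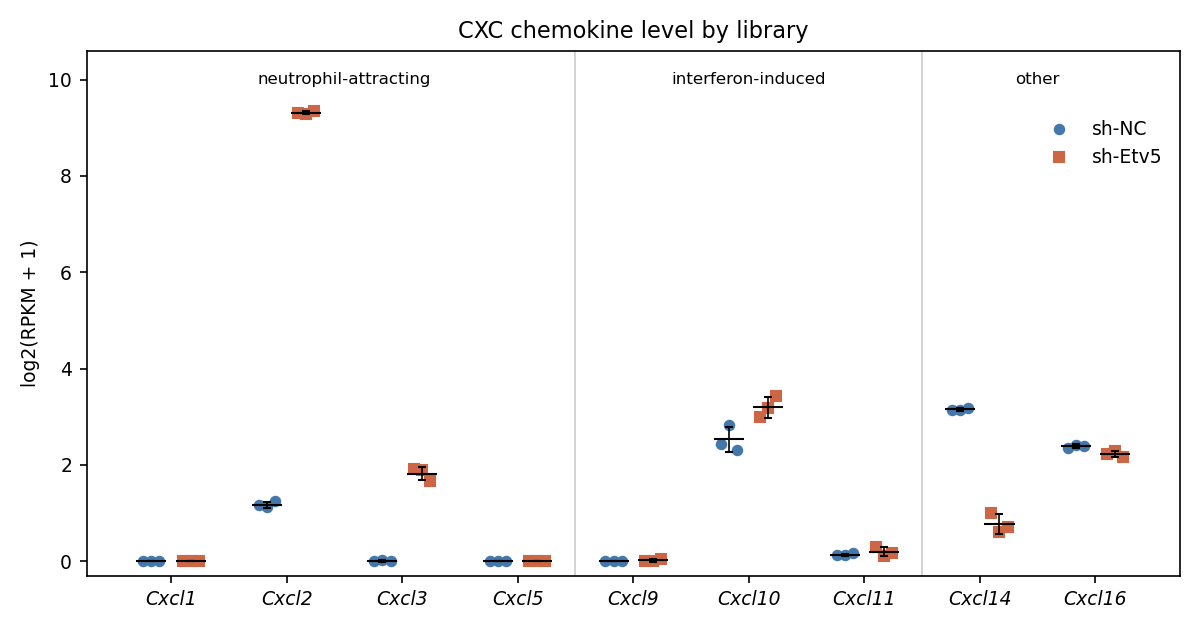
Level of the 9 CXC ligands as log2(RPKM + 1) on a linear axis, with a point for each library (circles sh-NC, squares sh-Etv5), a line at the mean of 3 libraries and bars of 1 SD. Cxcl2 stands far above every other ligand in the sh-Etv5 libraries, at 622 to 651 RPKM, while Cxcl1 and Cxcl5 lie at 0 in all 6 libraries.

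*Cxcl2*, also known as MIP-2, is the neutrophil-attracting ligand typical of activated macrophages. It was at 1.24, 1.17 and 1.37 RPKM under sh-NC and at 636, 622 and 651 RPKM under sh-*Etv5*. Every knockdown library was thus far above every control library, and the libraries of a group lay close together. The mean rose from 1.26 ± 0.0990 to 636 ± 14.6 RPKM (SD, n = 3), a ratio of 505. On the log2(RPKM + 1) scale the log2 fold change came to 8.14 (standard error 0.0425, 95% confidence interval 8.05 to 8.23, limma adjusted p = 3.8e-16), a scale that understates the change of genes with a low control level. Among all 24786 genes, *Cxcl2* ranked between 10068 and 10262 by RPKM under sh-NC and 45 or 46 in the sh-*Etv5* libraries.

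*Cxcl3*, a close relative that acts on the same receptor, was at 0, 0.0242 and 0 RPKM under sh-NC and at 2.75, 2.71 and 2.16 RPKM under sh-*Etv5*. It was thus barely detected in control cells and present at a low level in each knockdown library. The log2 fold change was 1.81 (standard error 0.0926, 95% confidence interval 1.60 to 2.01, limma adjusted p = 1.49e-08), and no ratio is given because 2 of the 3 control values were 0. The size depended on the pseudocount, with a log2 fold change of 4.61 at a pseudocount of 0.1 and 7.40 at 0.01. In the sh-*Etv5* libraries *Cxcl2* was at 231, 229.7 and 301 times the level of *Cxcl3*, so these related ligands rose to very different levels.

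The other members of this group were listed at 0 throughout. *Cxcl1*, also known as KC and a major neutrophil attractant of the mouse, was listed at 0 RPKM in all 6 libraries. *Cxcl5*, also known as LIX and made mainly by epithelial and stromal cells, was likewise at 0 RPKM in all 6 libraries. A difference could therefore not be measured for either gene, and the files give no read depth from which an upper limit could be computed.

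These ligands lie side by side on the plus strand of chromosome 5 in GRCm38. *Cxcl5* covers 90759360 to 90761624, *Cxcl3* covers 90786103 to 90789600, *Cxcl1* covers 90891241 to 90893115 and *Cxcl2* covers 90903871 to 90905938 (GENCODE release M21). The start site of *Cxcl1*, which was at 0, lies only 12.6 kb from that of *Cxcl2*, while *Cxcl3* starts 118 kb away. Among the further CXC ligands of this stretch, *Pf4*, the platelet factor gene, was at 0, 0 and 0.164 RPKM under sh-NC and at 1.19, 0.383 and 0.728 RPKM under sh-*Etv5*. It stayed below the filter, and without that filter its log2 difference was 0.72 (95% confidence interval 0.28 to 1.17, limma adjusted p = 0.0197). *Ppbp* and *Cxcl15* did not exceed 0.0419 RPKM in any library. None of the 6 CXC ligands beyond the 9 passed the filter, and *Cxcl12* and *Cxcl13* were at 0 RPKM throughout.

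**Figure D2:**
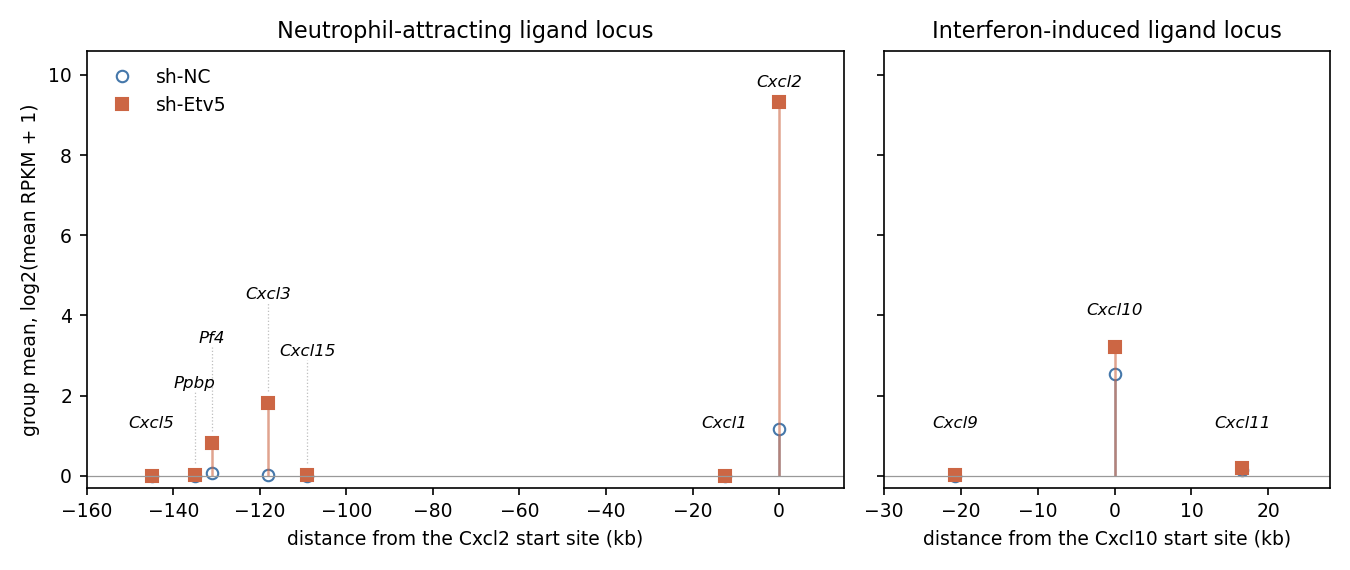
Group means as log2(mean RPKM + 1) of the CXC ligand genes along both loci of chromosome 5, plotted against the distance of each start site from that of Cxcl2 (left) or Cxcl10 (right) in kb, with open circles for sh-NC and squares for sh-Etv5 (n = 3 libraries each). Cxcl1 lies at 0 beside Cxcl2, which reached a mean of 636 RPKM, and Cxcl9 and Cxcl11 lie near 0 on both sides of Cxcl10.

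Because the members of the neutrophil-attracting group moved so unequally, the sequences ahead of their start sites are shown, together with those of *Cxcl10* and *Cxcl9* for comparison. The RefSeq promoter table (GRCm38.p6) held windows for 6 of the 9 ligands, namely *Cxcl1*, *Cxcl2*, *Cxcl3*, *Cxcl9*, *Cxcl10* and *Cxcl14*. Bases 250 to 51 before the RefSeq start site are printed 5′ to 3′ on the strand of the gene. Capitals mark matches, on either strand, to the NF-κB motif or to the core of the interferon-stimulated response element. The NF-κB motif was searched as GGGRNNYYCC, where R is A or G, Y is C or T and N is any base. That core (ISRE core) is a pair of GAAA blocks with 2 bases between them.
Cxcl1 (chr5:90890995-90891194, plus strand): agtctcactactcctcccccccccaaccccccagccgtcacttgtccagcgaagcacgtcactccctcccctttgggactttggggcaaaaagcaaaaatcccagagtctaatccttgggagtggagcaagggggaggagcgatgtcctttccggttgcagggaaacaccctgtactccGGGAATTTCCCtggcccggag
Cxcl2 (chr5:90903649-90903848, plus strand): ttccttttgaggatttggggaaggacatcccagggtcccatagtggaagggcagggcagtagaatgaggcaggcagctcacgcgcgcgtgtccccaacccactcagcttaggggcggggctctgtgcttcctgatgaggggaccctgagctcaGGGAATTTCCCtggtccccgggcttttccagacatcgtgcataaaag
Cxcl3 (chr5:90785851-90786050, plus strand): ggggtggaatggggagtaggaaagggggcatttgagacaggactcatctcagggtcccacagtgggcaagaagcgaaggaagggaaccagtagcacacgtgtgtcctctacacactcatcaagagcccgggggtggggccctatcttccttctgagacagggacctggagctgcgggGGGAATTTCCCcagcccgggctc
Cxcl10 (chr5:92348940-92349139, minus strand): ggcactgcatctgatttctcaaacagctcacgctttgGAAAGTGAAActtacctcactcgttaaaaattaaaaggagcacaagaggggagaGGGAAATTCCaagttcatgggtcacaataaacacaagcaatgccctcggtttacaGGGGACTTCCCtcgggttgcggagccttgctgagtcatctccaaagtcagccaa
Cxcl9 (chr5:92328130-92328329, minus strand): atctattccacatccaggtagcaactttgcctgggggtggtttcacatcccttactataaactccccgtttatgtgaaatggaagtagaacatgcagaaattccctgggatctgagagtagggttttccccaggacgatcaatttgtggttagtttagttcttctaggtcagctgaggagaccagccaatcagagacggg

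The windows of *Cxcl1*, *Cxcl2* and *Cxcl3* each held the same 11 bases, GGGAATTTCCC, in which the NF-κB motif matches at 2 overlapping positions. The match began 71 bases before the RefSeq start site in *Cxcl1*, 97 bases in *Cxcl2* and 73 bases in *Cxcl3*. RefSeq and GENCODE place these start sites differently. The *Cxcl2* window of 250 bases ends at 90903898, inside the GENCODE gene, which starts at 90903871. The larger distance in *Cxcl2* therefore depends on the annotation used. *Cxcl1*, at 0 RPKM in all libraries, and *Cxcl2*, at 636 RPKM under sh-*Etv5*, therefore carried identical letters at this place. The window of *Cxcl10* held 3 matches to the NF-κB motif, 2 of them overlapping, a match to the ISRE core that began 213 bases before the start site and a match to the AP-1 motif TGANTCA. *Cxcl9* had no match to these motifs, and *Cxcl14* had a match to the ISRE core only. The ETS motif, searched only as the exact 7 bases CCGGAAG, was found in 0 of the 6 windows. Shorter or looser forms were not searched for any of these motifs, so ETS-type sequence may still be present. The same holds for NF-κB-type sequence in the window of *Cxcl9*. Of all 32851 promoter windows of 250 bases in the table, 7.25% held the NF-κB motif, 2.98% the ISRE core, 6.75% TGANTCA and 6.91% CCGGAAG. A match describes letters only and does not show that a factor binds there.

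Shared sequence was examined because reads from similar genes can be assigned to the wrong one. Of the 50-base sequences in *Cxcl2* transcripts, 5.84% also occurred in *Cxcl3*, with a longest shared run of 157 bases, and 4.24% of those in *Cxcl3* occurred in other genes. The low level of *Cxcl3* in sh-*Etv5* cells is therefore uncertain, since it was below 1% of that of *Cxcl2* and how shared reads were assigned is not given in the sources used here. *Cxcl1* shared no 50-base sequence with *Cxcl2* or *Cxcl3*, and the longest run it had in common with either was 23 bases.

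Among the interferon-induced ligands *Cxcl10* alone was called, with a smaller difference than *Cxcl2* and *Cxcl3*. *Cxcl10*, also known as IP-10, was at 4.43, 6.10 and 3.99 RPKM under sh-NC and at 6.98, 8.02 and 9.79 RPKM under sh-*Etv5*. The highest control library lay just below the lowest knockdown library, and the SD on the log2 scale was larger than that of the other 4 tested ligands in both groups, at 0.265 in sh-NC and 0.219 in sh-*Etv5* cells. The mean rose from 4.84 ± 1.11 to 8.26 ± 1.42 RPKM (SD, n = 3), a rise of 70.7%. The log2 fold change was 0.67 (standard error 0.132, 95% confidence interval 0.38 to 0.96, limma adjusted p = 0.000807).

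*Cxcl9*, also known as MIG and driven mainly by interferon gamma, was listed at 0 in all libraries but 1 of sh-*Etv5*, where it read 0.0370 RPKM. Without the filter its log2 difference was 0.02 (95% confidence interval -0.02 to 0.06, limma adjusted p = 0.435). *Cxcl11*, also known as I-TAC, was at 0.0895, 0.0905 and 0.120 RPKM under sh-NC and at 0.229, 0.0841 and 0.133 RPKM under sh-*Etv5*. The groups overlapped, and without the filter the log2 difference was 0.06 (95% confidence interval -0.06 to 0.18, limma adjusted p = 0.375). GENCODE lists *Cxcl11* as a polymorphic pseudogene, so that its transcript does not stand for a secreted ligand in the reference strain. Whether this holds for the gene in Raw264.7 cells was not tested.

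The genes of this group lie on the minus strand of chromosome 5 in GRCm38, *Cxcl9* from 92321347 to 92328079, *Cxcl10* from 92346638 to 92348889 and *Cxcl11* from 92359544 to 92365485. Their start sites are 20.8 and 16.6 kb from that of *Cxcl10*. Exons of *Cxcl10* overlap those of *Art3* on the opposite strand, and *Art3* was at 0.0412 ± 0.0358 RPKM under sh-NC and 0.0625 ± 0.0217 RPKM under sh-*Etv5* (SD, n = 3), far below *Cxcl10*. *Cxcl11* overlaps *Gm2673* on the opposite strand, which was not analysed here. The library kit named by the study does not mark strand, so reads from overlapping genes on opposite strands cannot be told apart.

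Set side by side, the differences of *Cxcl2* and *Cxcl10* had intervals far apart, 8.05 to 8.23 against 0.38 to 0.96 on the log2(RPKM + 1) scale. The ratio of *Cxcl2* to *Cxcl10* RPKM within a library was 0.280, 0.192 and 0.342 in the sh-NC libraries and 91.1, 77.5 and 66.5 in the sh-*Etv5* libraries. In control cells *Cxcl10* was thus the higher of the pair, and in knockdown cells *Cxcl2* was. The log2 of this ratio went from -1.92 ± 0.423 to 6.28 ± 0.227 (SD, n = 3), a difference of 8.20 (exact permutation test, two-sided p = 0.1, the smallest that 3 against 3 libraries can give).

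As a whole, the 4 neutrophil-attracting ligands had a median log2 difference of 0.90, with *Cxcl2* and *Cxcl3* called higher and the other 2 at 0 throughout. The 3 interferon-induced ligands had a median log2 difference of 0.06, with *Cxcl10* called higher. The medians differed by 0.84, with the ligands at 0 throughout counted as no difference. Over tested ligands alone the medians were 4.97 for *Cxcl2* and *Cxcl3* and 0.67 for *Cxcl10* alone. Of these, *Cxcl3* passed the filter only through the sh-*Etv5* libraries. The median over all 10738 tested genes was -0.05. These medians describe neither *Cxcl2* nor the ligands at 0 well, and no test was made of them.

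**Figure D3:**
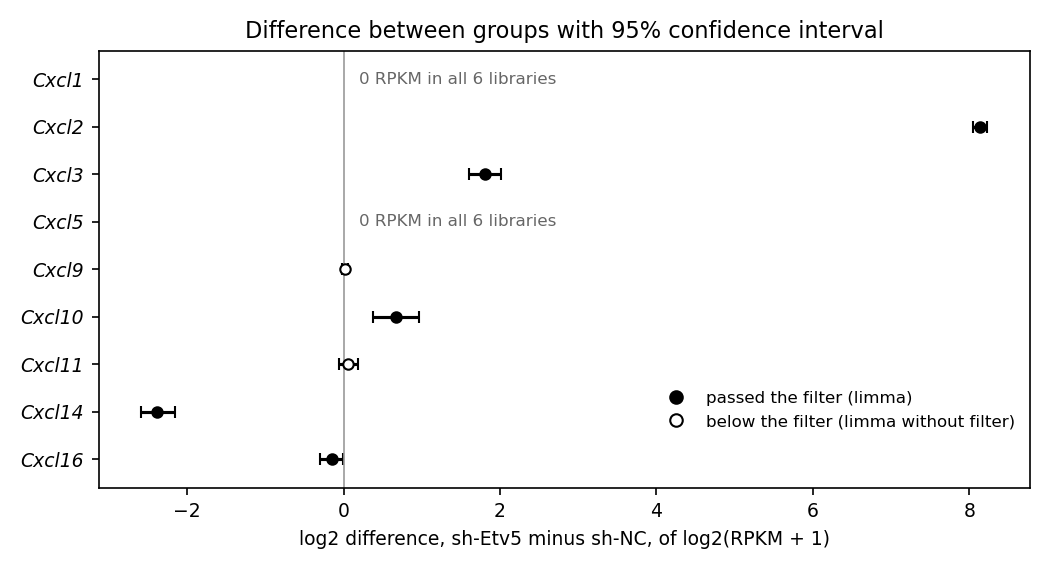
Difference of group means of log2(RPKM + 1), sh-Etv5 minus sh-NC, for each CXC ligand with its 95% confidence interval from limma (n = 3 libraries per group), as filled points for ligands that passed the filter and open points for ligands below it. Cxcl2 lies at 8.14 and Cxcl10 at 0.67, while Cxcl14 lies at -2.38 and the interval of Cxcl16 ends just below 0.

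*Cxcl14* was the ligand that fell. It was at 7.82, 7.77 and 8.13 RPKM under sh-NC and at 1.01, 0.519 and 0.646 RPKM under sh-*Etv5*. Each knockdown library was well below each control library, and the relative spread was larger in the knockdown libraries. Means were 7.91 ± 0.196 and 0.725 ± 0.253 RPKM (SD, n = 3), so the level fell by 90.8%. The log2 fold change was -2.38 (standard error 0.0975, 95% confidence interval -2.59 to -2.16, limma adjusted p = 2.6e-09). By log2 fold change it was number 16 from the bottom among 10738 tested genes. In bulk RNA of a cell line, fewer expressing cells and less RNA per cell cannot be told apart, which holds for every ligand here. Its gene occupies chromosome 13 from 56288643 to 56296551, on the minus strand.

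*Cxcl16* was at 4.08, 4.36 and 4.27 RPKM under sh-NC and at 3.70, 3.92 and 3.49 RPKM under sh-*Etv5*. All knockdown values were below all control values, but the distance was small. The mean was 4.24 ± 0.143 in sh-NC and 3.71 ± 0.214 RPKM under sh-*Etv5* (SD, n = 3), and the log2 fold change was -0.15 (standard error 0.0650, 95% confidence interval -0.30 to -0.01, limma adjusted p = 0.0502). The call depended on the processing, with limma adjusted p-values from 0.00800 with quantile normalization to 0.139 with 1 library left out. Without sh-*Etv5* replicate 2 it was called (log2 fold change -0.19, limma adjusted p = 0.0330). The gene occupies chromosome 11 from 70453983 to 70459984, on the minus strand, and its exons overlap those of *Zmynd15* on the opposite strand, which was at 0.764 ± 0.0282 and 0.700 ± 0.203 RPKM (SD, n = 3).

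The order of the ligands by level was different in the groups. In sh-NC cells *Cxcl14* was highest, ahead of *Cxcl10* and *Cxcl16*, whose libraries overlapped, then *Cxcl2* and *Cxcl11*. In sh-*Etv5* cells *Cxcl2* was highest, followed by *Cxcl10*, *Cxcl16*, *Cxcl3*, *Cxcl14*, *Cxcl11* and *Cxcl9* without overlap between neighbours in that order. *Cxcl14*, at the head of the order in control cells, was thus below *Cxcl3* in knockdown cells. Summed over the 9 ligands, the level was 17.7, 19.5 and 17.9 RPKM under sh-NC and 651, 637 and 667 RPKM under sh-*Etv5*. *Cxcl2* made up 6.00% to 7.64% of this sum in sh-NC libraries and 97.6% to 97.7% in sh-*Etv5* libraries. *Cxcl14* made up 39.8% to 45.5% in sh-NC libraries and at most 0.155% in sh-*Etv5* libraries.

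**Figure D4:**
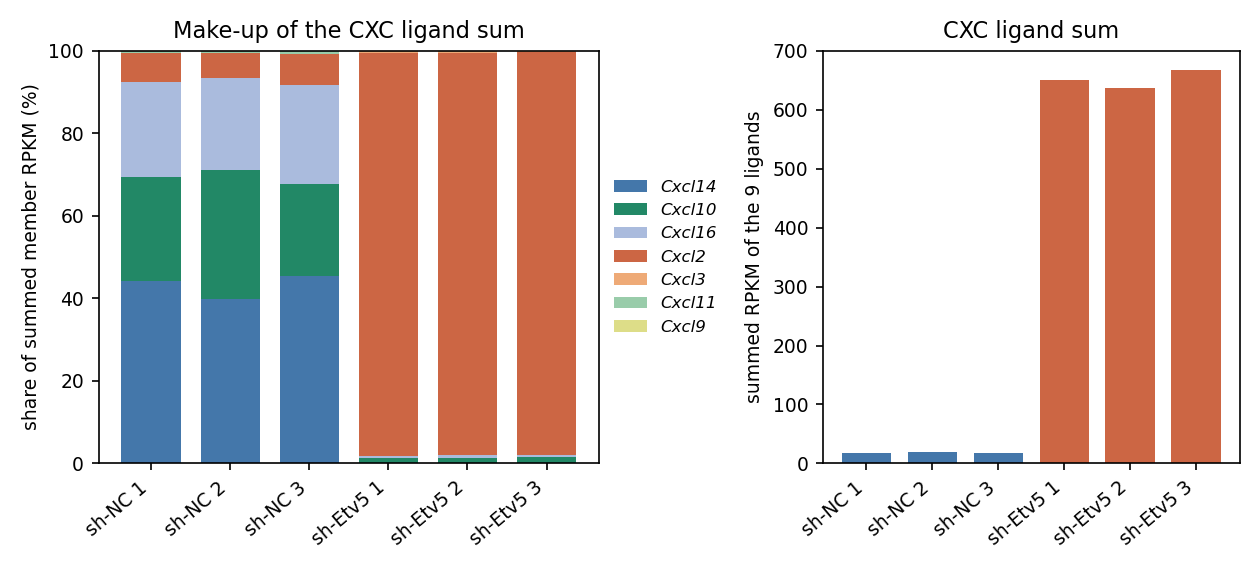
Left, the share of each ligand in the summed RPKM of the 9 CXC ligands in each library, in percent. Right, that sum in RPKM per library, with sh-NC in blue and sh-Etv5 in orange. The sh-NC libraries are made up mainly of Cxcl14, Cxcl10 and Cxcl16 at a sum of 17.7 to 19.5 RPKM, and the sh-Etv5 libraries almost wholly of Cxcl2 at 637 to 667 RPKM.

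For each ligand with a called log2 fold change above 1 in size, the 3 tested genes with the nearest profile over the 6 libraries were found by Euclidean distance of log2(RPKM + 1). For *Cxcl2* these were *Ccl2*, which encodes the monocyte attractant MCP-1, *Fabp4*, which encodes a fatty acid binding protein, and *Gm5483*, at distances of 2.27, 2.51 and 2.61. *Ccl2* was at 3.67 ± 0.506 RPKM under sh-NC and 368 ± 13.7 RPKM under sh-*Etv5* (SD, n = 3). *Cxcl3* was nearest to *Fam43a*, *Extl1* and *Pilrb2* at distances of 0.181 to 0.262. *Cxcl14* was nearest to *Pdgfa*, a platelet-derived growth factor, *Gucy2g* and *Gas6*, a ligand of the TAM receptors, at distances of 0.629 to 0.772. The nearest genes to *Cxcl2* were thus farther from it than those of *Cxcl3* and *Cxcl14* were from theirs. All these genes were chosen for closeness to a ligand in the same libraries, so their moving with it is not a separate result. *Gm5483*, *Fam43a*, *Extl1* and *Pilrb2* passed the filter only through the sh-*Etv5* libraries, and *Gucy2g* and *Gas6* only through the sh-NC libraries.

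Of the 8 receptor genes of the family, 2 were tested and both were called higher, against 33.3% of all tested genes. *Cxcr2*, through which the neutrophil-attracting ligands act, and *Cxcr1* were at 0 RPKM in all 6 libraries. *Cxcr3*, the receptor of the interferon-induced ligands, was at 1.61, 2.12 and 2.29 RPKM under sh-NC and at 3.52, 2.62 and 2.89 RPKM under sh-*Etv5* (log2 fold change 0.42, standard error 0.107, limma adjusted p = 0.00449). *Cxcr5*, the receptor of Cxcl13, rose from 1.34 ± 0.107 to 2.16 ± 0.159 RPKM (SD, n = 3, log2 fold change 0.44, limma adjusted p = 0.000419). *Cxcr4*, the receptor of Cxcl12, was at 0.849, 0.983 and 1.79 RPKM under sh-NC and at 0.174, 0.150 and 0.148 RPKM under sh-*Etv5*. It was below the filter, and without it the log2 difference was -0.91 (95% confidence interval -1.31 to -0.51, limma adjusted p = 0.00552). *Cxcr6*, the receptor of Cxcl16, did not exceed 0.104 RPKM.

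Lists of genes related to these ligands were read from the same fit, beside the 33.3% of all tested genes called higher and the 41.0% called lower. Of 14 genes listed as NF-κB genes and inducing cytokines, 13 were tested, 12 were called higher and none lower. The median log2 difference was 1.19 over all 14 and 1.51 over the 13 tested. The list mixes roles, since *Nfkbia* (1.51) and *Tnfaip3* (0.86), whose products restrain NF-κB, were also called higher. Whether *Csf3* and *Csf2* act on the ligands was not tested. *Csf3*, *Csf2* and *Il1b* passed the filter through the sh-*Etv5* libraries alone, so their calls were in part set by the filter. The count of 12 and the median over the 13 tested include them. The list was chosen with earlier results of these data known, so its count is not independent evidence. *Tnf* rose from 63.0 ± 0.896 to 412 ± 6.77 RPKM and *Bcl3*, a nuclear IκB protein, from 1.32 ± 0.0218 to 24.9 ± 0.796 RPKM (SD, n = 3). *Csf3*, the neutrophil growth factor gene, had the largest log2 fold change of the list, 6.90, and *Nfkbiz*, which encodes a nuclear cofactor of NF-κB, had 3.46 and *Csf2* 2.82. *Il1b* was at 0.152 ± 0.0733 RPKM under sh-NC and 2.31 ± 0.112 RPKM under sh-*Etv5* (SD, n = 3). Of the NF-κB subunit genes, *Rel* had a log2 fold change of 0.80, *Nfkb2* of 0.32, *Rela* of 0.17 and *Nfkb1* of 0.13, all called higher, and *Relb* was not called (0.13, limma adjusted p = 0.123).

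Of 17 interferon signalling genes, 15 were tested, of which 5 were called higher and 6 lower. These counts are near the 33.3% higher and 41.0% lower of all tested genes. The median log2 difference was 0.00 over all 17 and -0.01 over the 15 tested. *Ifnar2*, which encodes a subunit of the type I interferon receptor, fell (log2 fold change -0.44). *Irf8* (0.85) and *Irf7* (0.80) rose, and *Irf1* was not called (-0.18, limma adjusted p = 0.0677). *Ifng* was at 0 RPKM in all libraries, and *Ifnb1* was at 0, 0 and 0.175 RPKM under sh-NC and 0.540, 0.570 and 0.272 RPKM under sh-*Etv5*, below the filter. Of 14 further interferon-induced genes, 12 were tested, of which 7 were called higher and 2 lower. Their median log2 difference was 0.16 over all 14 and 0.33 over the 12 tested. *Rsad2*, an antiviral enzyme gene, rose most (3.05), followed by *Ifit2* (1.15), *Isg15* (1.10) and *Ifit3* (0.90). The genes that fell, *Mx1* (-0.74) and *Irgm1* (-0.38), are named after their values were seen. The interferon-inducible GTPase genes *Gbp2* and *Gbp5*, which interferon gamma induces strongly as it does *Cxcl9*, were below the filter, with means of at most 0.437 RPKM in either group.

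All 7 mRNA decay regulators were tested and called, 2 higher and 5 lower. Of all tested genes 74.3% were called in either direction, 33.3% higher and 41.0% lower. *Zfp36*, which encodes tristetraprolin, a protein that binds AU-rich elements, rose from 19.0 ± 0.588 to 107 ± 2.51 RPKM (SD, n = 3, log2 fold change 2.43). *Zc3h12a*, which encodes the endonuclease Regnase-1, rose from 4.02 ± 0.356 to 24.0 ± 0.410 RPKM (log2 fold change 2.32). The other 5 fell, namely *Zfp36l2* (-0.83), *Zfp36l1* (-0.78), *Khsrp* (-0.72), *Hnrnpd* (-0.36) and *Elavl1* (-0.25). *Zfp36* and *Zc3h12a* were thus high in the same libraries as *Cxcl2*, and transcript half-lives were not measured.

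Of 10 proteases that cleave CXC ligands, 3 were tested. *Adam10*, the main sheddase of constitutive Cxcl16 release, fell from 47.5 ± 1.34 to 29.0 ± 1.32 RPKM (SD, n = 3, log2 fold change -0.69), and *Adam17* from 49.6 ± 0.558 to 33.2 ± 0.313 RPKM (log2 fold change -0.57). *Mmp12*, a macrophage metalloproteinase that trims neutrophil-attracting ligands, rose from 0.632 ± 0.0595 to 1.66 ± 0.311 RPKM (log2 fold change 0.70), and it passed the filter only through the sh-*Etv5* libraries, where it is high. *Dpp4*, whose product trims the interferon-induced ligands, was at 0 RPKM in all libraries.

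**Figure D5:**
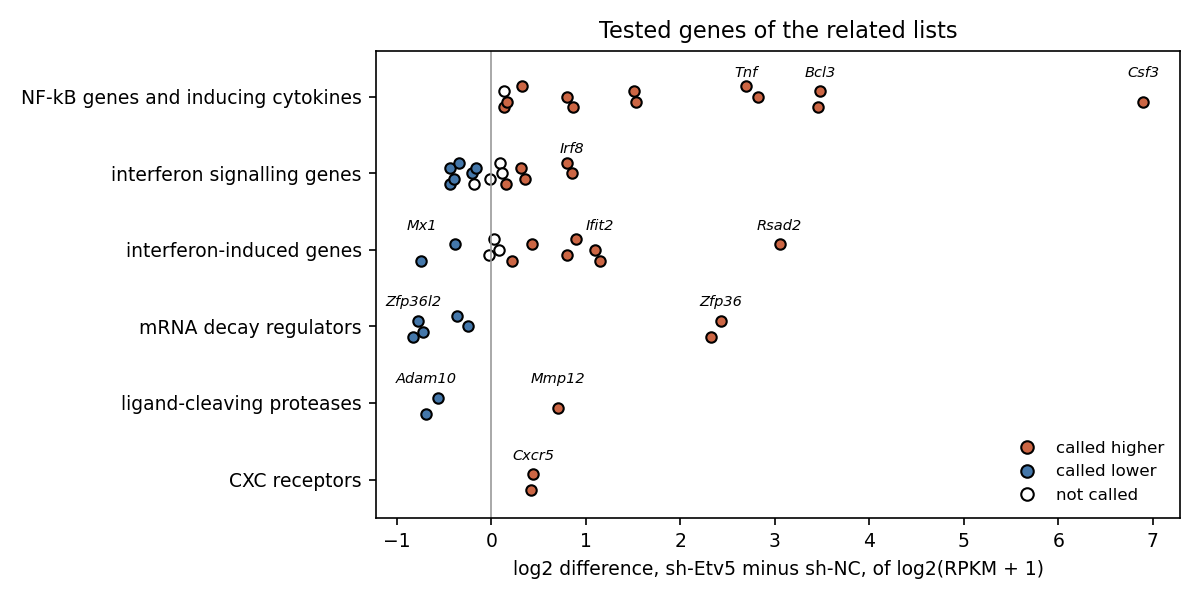
Log2 difference, sh-Etv5 minus sh-NC, of log2(RPKM + 1) for each tested gene of 6 related lists, with orange points called higher, blue points called lower and open points not called by limma (n = 3 libraries per group). In the list of NF-kB genes and inducing cytokines 12 of 13 points are called higher, against 33.3% of all tested genes. Of these, 3 are for genes that passed the filter only through the sh-Etv5 libraries. The lists were chosen with earlier results of these data known, so their counts are not independent evidence. The interferon signalling list has 5 of 15 called higher and 6 called lower, near the 33.3% and 41.0% of all tested genes.

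The genes around the ligands were read to see whether the whole stretch of chromosome moved. Within 300 kb of the neutrophil-attracting cluster, 12 other genes were measured and 2 passed the filter. *Afp*, the alpha-fetoprotein gene, rose from 0.471 ± 0.0699 to 7.82 ± 0.852 RPKM (SD, n = 3, log2 fold change 2.58), and *Mthfd2l*, which lies 25179 bases from *Cxcl2*, from 1.40 ± 0.241 to 2.15 ± 0.291 RPKM (log2 fold change 0.40, limma adjusted p = 0.00412). *Afp* passed the filter only through the sh-*Etv5* libraries, which leaves *Mthfd2l* as the neighbour here whose test did not depend on its being high in a group. Below the filter, *Rassf6* was at 0 RPKM under sh-NC and at 0.313, 0.374 and 0.433 RPKM under sh-*Etv5* (limma without filter, adjusted p = 0.000154). In that fit, which called 4152 genes higher, *5830473C10Rik* (limma adjusted p = 0.00781) and *Epgn* (limma adjusted p = 0.0445) were also higher, as was *Pf4*. Levels were low, with *5830473C10Rik* at means of 0.00394 RPKM under sh-NC and 0.243 RPKM under sh-*Etv5*. The means of *Epgn* were 0.0247 and 0.0682 RPKM. *Alb*, *Ppbp* and *Cxcl15* were not called in the fit without filter, and *Afm* was at 0 RPKM throughout. The epidermal growth factor family genes *Ereg* and *Areg*, also near *Cxcl2*, did not exceed 0.000466 RPKM in any library. Within 300 kb of the interferon-induced cluster, 7 of 14 measured genes were tested, of which 3 were called higher and 4 lower, against 33.3% and 41.0% of all tested genes. Around *Cxcl14*, 2 of 9 measured genes were tested, with *H2afy* lower (-0.42) and *Tifab* not called. Around *Cxcl16*, 8 of the 20 tested genes were called higher, 7 lower and 5 not called, which is near the 33.3% higher and 41.0% lower of all tested genes. Of these 20, *Bcl6b* passed the filter by its sh-*Etv5* libraries and *Clec10a*, which was lower, by its sh-NC libraries.

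The neutrophil marker gene *S100a8* moved with *Cxcl2*, from 0.306 ± 0.184 to 17.1 ± 2.29 RPKM (SD, n = 3). It passed the filter only through the sh-*Etv5* libraries, where it is high. The summed level of the 6 neutrophil markers was 0.123 to 0.491 RPKM under sh-NC and 15.6 to 19.7 RPKM in sh-*Etv5* libraries, of which *S100a8* was the only gene to reach 1 RPKM. The defining markers *Ly6g*, *S100a9* and *Elane* were at 0 RPKM in all 6 libraries, and *Mpo* and *Ltf* had means of at most 0.00702 RPKM. The summed level of the 7 macrophage markers was 3837 to 3942 RPKM under sh-NC and 2829 to 2909 RPKM under sh-*Etv5*, with 3 markers called higher and 4 lower, where 74.3% of all tested genes were called in either direction. That of the 4 endothelial markers was 0.171 to 0.363 and 1.12 to 1.27 RPKM. The part of these markers in the ligand differences was not tested.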

How the data were processed

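Polyadenylated RNA of 6 Raw264.7 libraries was sequenced, and the authors deposited a table of RPKM values per gene symbol, whose column names point to coverage tracks. The genome build per the labels is mm10. The aligner, the counter and their versions are not given in the sources used here, and read depth is unknown, so that no counting interval could be given. RPKM values are relative to the library, which fixes no absolute amount of RNA. Libraries were grouped by their titles.

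Genes with at least 1 RPKM in at least 3 of 6 libraries were kept (10738 of 24786). log2(RPKM + 1) was fitted with limma 3.58.1 in R 4.3.3 (empirical Bayes with trend, 3 sh-NC against 3 sh-*Etv5* libraries, no covariate), and p-values were adjusted by the Benjamini-Hochberg method over all tested genes. Scripts ran in Python 3.11.15 and were tested on simulated data. Ratios within a library were compared with exact permutation tests, two-sided. The ligands and lists were chosen with earlier results of these data known, so the lists are not independent evidence. Named were all 9 ligands, the 4 largest changes of each list with genes of a stated role, measured genes within 300 kb of a ligand, and the 3 nearest profiles. A listed gene is not reported here. Alternatives covered the pseudocount, filter, scaling, variance model, replicate block and each library left out. Gene positions are from GENCODE M21 and promoter sequences from RefSeq (GRCm38.p6), the build that mm10 names.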

Additional observations from a re-analysis of the deposited data

How the results depend on the processing

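*Cxcl2*, *Cxcl3* and *Cxcl10* remained called higher and *Cxcl14* called lower under every alternative that gave a value, and no direction reversed. *Cxcl3*, *Cxcl14* and *Cxcl16* had no value when a mean of at least 5 RPKM was required. *Cxcl16* became called after rescaling to the same sum (-0.20, limma adjusted p = 0.0199), quantile normalization (-0.22, 0.00800), without the variance trend (-0.15, 0.0222) and without sh-*Etv5* replicate 2 (-0.19, 0.0330). With pseudocounts of 0.1 and 0.01 the median log2 difference was 2.31 and 3.70 for the neutrophil-attracting ligands and 0.27 and 0.74 for the interferon-induced ligands, and the medians differed by 2.03 and 2.95, since a smaller pseudocount widens differences of low genes. With 1 library left out these ranged from 0.88 to 0.94, from 0.03 to 0.10 and from 0.79 to 0.87. Genes called higher numbered 3358 to 3494 and genes called lower 4140 to 4371 with 1 library left out, against 2564 to 4152 and 3528 to 4921 under the other settings. Same-numbered libraries did not deviate together (correlations of 0.0739, -0.0710 and -0.0352), so the numbers were not taken to pair them. A fit with a replicate block called 3539 genes higher and 4361 lower, gave list medians of 0.90 and 0.06 with a difference of 0.84, and changed the call of no ligand. With 3 libraries per group no exact permutation test can go below 0.1, and unknown depth leaves ligands listed at 0 without an upper limit.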
